A study of Mus musculus with 32 samples.

Results

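The mouse genome encodes 66 protein-coding genes in GENCODE release M21 whose symbols mark them as a kinesin (Kif), a kinesin light chain (Klc) or an alpha-, beta-, gamma-, delta- or epsilon-tubulin (Tuba, Tubb, Tubg, Tubd, Tube), and 59 of them are rows of the juvenile germ cell gene table of 20368 genes. These 59 members, 16 tubulins and 43 kinesins and light chains, were chosen by symbol within that table, in which every gene reached 3 TPM in at least 1 mouse. The other 7 matching genes, among them Kif2b and Tuba8, are not in it. RNA-seq had been carried out on germ cells of individual male C57BL/6J mice, 3 mice at 8 days post-partum (dpp) and 5 at each of 10, 12, 14, 16 and 18 dpp, so that each age adds later stages of the first wave of spermatogenesis. Per the study, further 8 dpp libraries were left out by the authors because they resembled those of their age poorly. A further 4 samples of C57BL/6J males held pachytene and diplotene spermatocytes enriched by sedimentation at unit gravity, each pooled from 6 mice aged 9 weeks. The labels name no transgene or treatment. Per the study's protocols, interstitial cells had been washed off the tubules before digestion. Levels are given in TPM, a measure of transcript abundance adjusted for transcript length and scaled to the same total in every library.

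Microtubules are hollow polymers of alpha- and beta-tubulin dimers. Gamma-tubulin seeds them, and delta- and epsilon-tubulin are needed for the triplet microtubules of centrioles. Kinesins are motors that walk along microtubules or take them apart, and mammalian genomes hold several genes for nearly every tubulin and motor class. In the testis microtubules build the spindles of mitosis and meiosis, the transport tracks of Sertoli cells, and later the manchette and the flagellar axoneme of the spermatid.

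The libraries of one age resembled each other, with Pearson correlations of log2(TPM + 1) across genes between 0.947 and 0.984 in 53 pairs of mice. The preparations were not germ cells alone by their markers. Per the study's counts of stained cells, germ cells were the large majority in every juvenile sample. Those counts measure cells, whereas the sums here measure RNA. The summed TPM of 8 Sertoli cell genes was 6770 to 7619 at 8 dpp, 3216 to 4191 at 18 dpp and 292 to 429 in the adult samples, most of it from Clu, and 7 of the 8 genes fell between 8 and 18 dpp. Summed levels of 5 peritubular cell genes were 1051 to 1160, 524 to 1034 and 5.57 to 10.7 in the same groups. The 6 spermatogonial genes all fell, from 568 to 668 down to 233 to 312, and stood at 8.94 to 11.4 in the adult samples, whereas the 6 spermatocyte genes all rose, from 223 to 330 up to 1409 to 1574, and stood at 1440 to 1658. The 6 spermatid genes summed to at most 17 TPM at 18 dpp and to 872 to 1189 TPM in the adult samples. At 8 and then 18 dpp, Leydig cell genes summed to 175 to 198 TPM and then to 169 to 472 TPM, macrophage genes to 26.4 to 33.3 and then 39.7 to 78.6, and endothelial genes to 50.2 to 56.6 and then 31.8 to 65.2, with the highest 18 dpp values in mice 4 and 5. No gene of the Sertoli, peritubular, spermatogonial or spermatocyte lists had a mean of 0 in any of these groups. In such bulk samples fewer cells of a type and less RNA per cell cannot be told apart, and the part of these cell types in the changes below was not tested.

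Members moved both up and down between 8 and 18 dpp. By limma on log2(TPM + 1) with Benjamini-Hochberg adjustment over all genes, 23 of 59 members (39%) rose and 26 (44.1%) fell, against 31.8% and 36.3% of all genes tested. Ranges of the mice did not overlap for 21 of the 23 and 22 of the 26. This share was not computed over all genes, so it does not set the members apart. The median log2 fold change was -0.07 over the members and -0.09 over all genes. Scaling by median-of-ratios factors moved the median of all genes to 0.05 and gave 28 higher and 20 lower members, and quantile normalization moved it to -0.26 and gave 19 and 29. The shares of all genes given above belong to the fit without such scaling, so these counts have no share beside them here. Median-of-ratios factors ended the calls of Kif13b, Kif21a, Kif23, Kif5a, Kifc1 and Klc1, all falls, and added rises of Kif16b, Kif18b, Kif3c, Klc3 and Klc4. Quantile normalization ended those of Kif11, Kif1bp, Kifc5b and Tube1, all rises, and added falls of Kif14, Kifc2 and Tuba4a. No member called in one direction was called in the other under either scaling, and changes of sign were limited to uncalled members, Kif22 and Tubb3 with the former and Kif16b and Kif3c with the latter. Across all 6 ages 53 members (89.8%) differed at some age, against 77.6% of all genes.

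**Figure D1:**
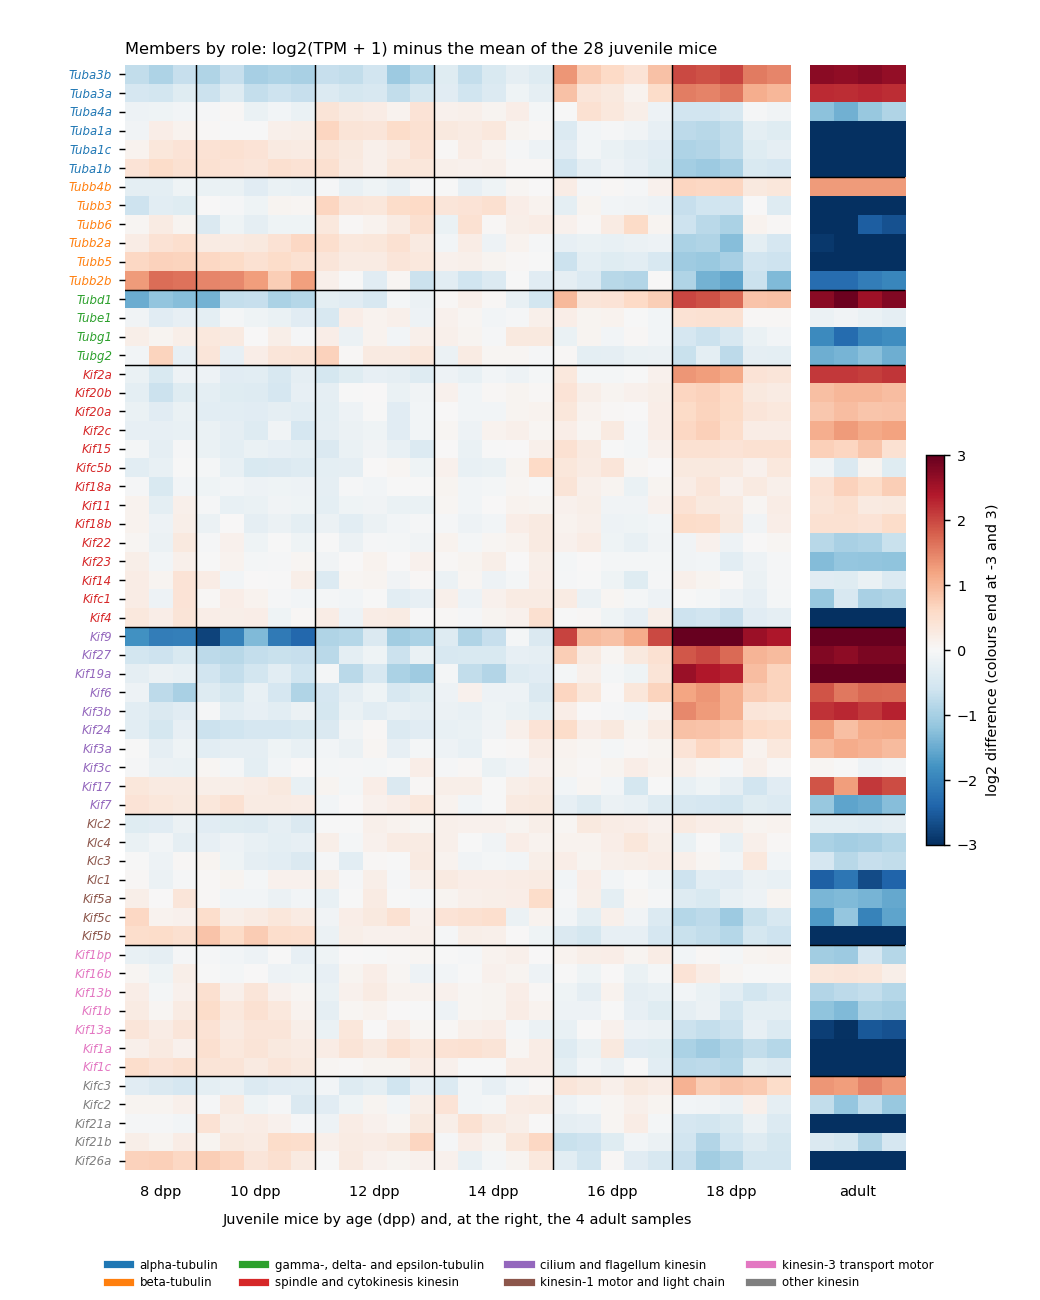
Heat map of log2(TPM + 1) of the 59 members, each minus its mean over the 28 juvenile mice, with 1 column for each juvenile mouse and, at the right, each adult sample; rows are grouped by role and ordered within a role by the change from 8 to 18 dpp. Kif9, Kif27, Kif19a, Tubd1 and Tuba3b are among the reddest at 18 dpp in the juvenile mice, and there mice 4 and 5 are paler than mice 1, 2 and 3.

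The roles differed in their counts, which were not tested against each other. They are to be read against 31.8% of all genes called higher and 36.3% lower. Of the 10 cilium and flagellum kinesins 7 rose and 2 fell, with a median log2 fold change of 1.18. Of the 14 spindle and cytokinesis kinesins 8 rose and 3 fell, with a median of 0.34. Kinesin-1 motors and light chains gave 1 rise and 4 falls of 7, and the kinesin-3 group, which includes the binding protein Kif1bp, 1 rise and 5 falls of 7. Alpha-tubulins gave 2 rises and 3 falls of 6, beta-tubulins 1 rise and 4 falls of 6, and the gamma-, delta- and epsilon-tubulins 2 rises and 2 falls of 4.

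**Figure D2:**
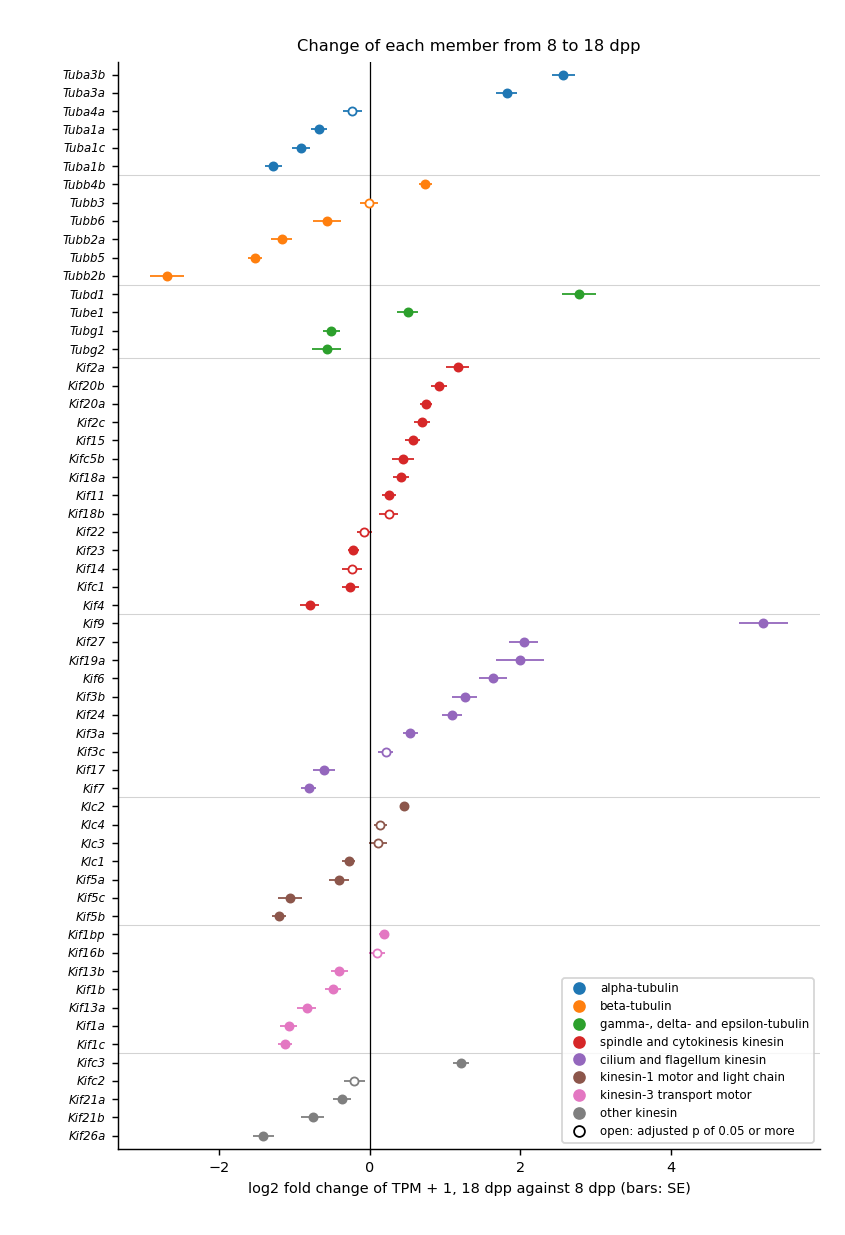
Fitted log2 fold change of TPM + 1 from 8 to 18 dpp for each of the 59 members, with SE bars, grouped and coloured by role; open points had an adjusted p of 0.05 or more. Kif9 lies farthest to the right at 5.23 and Tubb2b farthest to the left at -2.69.

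The 18 dpp mice were not alike. In 23 of 59 members mice 1, 2 and 3 all lay above mice 4 and 5, and in another 23 all below them, against 25.2% and 32.7% of all genes. Peritubular markers summed to 586, 524 and 554 TPM in mice 1 to 3 and to 1006 and 1034 TPM in mice 4 and 5, and Sertoli markers to 3273, 3216 and 3356 against 4137 and 4191. Spermatogonial markers summed to 240, 233 and 238 against 310 and 312. Spermatocyte markers did not separate the mice, at 1409, 1470 and 1574 against 1449 and 1487. Of 30 members named by rule, 28 had mice 1, 2 and 3 all above or all below mice 4 and 5, Kifc3 and Tubb2b being the others. This grouping of mice was noticed in the values and has no label of its own. Leaving out mice 4 and 5 gave the same counts of 23 higher and 26 lower members.

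The alpha-tubulin genes exchanged places. Tuba3a (chr6:125278274-125286042, minus strand) and Tuba3b (chr6:145615757-145621479, plus strand; GRCm38 throughout) encode proteins of 450 residues that are 100% identical, with coding sequences 97% identical, so the division of reads between them is uncertain and their sum is the firmer value. Tuba3a stood at 513, 491 and 561 TPM in the 8 dpp mice and at 2110, 2042, 2208, 1529 and 1449 TPM at 18 dpp. Tuba3b stood at 285, 251 and 297 TPM and then at 1901, 1788, 1955, 1419 and 1325 TPM. Every 18 dpp mouse was above every 8 dpp mouse for both. The log2 fold changes were 1.82 ± 0.14 (SE, limma adjusted p = 1.07e-11) and 2.57 ± 0.15 (adjusted p = 5.57e-14). In the adult samples, normalized in a separate table and therefore not tested against the juvenile ones, the means were 3416 ± 51.4 and 3073 ± 103.2 TPM (SD, n = 4).

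The Tuba1 genes moved the other way. Tuba1b, the alpha-tubulin of highest mean over the 28 juvenile mice (chr15:98931425-98934565), stood at 1251, 1369 and 1283 TPM at 8 dpp and at 462, 443, 475, 678 and 661 TPM at 18 dpp, a log2 fold change of -1.28 ± 0.11 (limma adjusted p = 6.92e-11). Tuba1a fell from 903 ± 95.8 (SD, n = 3) to 570 ± 102.8 TPM (n = 5), with a maximum of 1192 ± 98.1 TPM at 12 dpp, and Tuba1c fell from 175 ± 19.5 to 93.7 ± 20 TPM. The proteins of Tuba1a and Tuba1b are 99.6% identical and those of Tuba1b and Tuba1c 98.2%, so reads may be split between them as well. Their adult means were 44.4 ± 3.08 (Tuba1b), 31.7 ± 2.61 (Tuba1a) and 8.24 ± 2.47 TPM (Tuba1c). Tuba4a was not called, at 12.3 and 10.5 TPM.

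As shares of all alpha-tubulin TPM, Tuba3a and Tuba3b together held 25.1% ± 2.2 at 8 dpp, 73.9% ± 7.32 at 18 dpp and 98.4% ± 0.0487 in the adult samples (SD, n = 3, 5 and 4). Tuba1b held 40.8% ± 1.36, 11.6% ± 3.46 and 0.673% ± 0.0334 in the same groups. Summed alpha-tubulin TPM was 3013 to 3290 at 8 dpp, 4228 to 5246 at 18 dpp and 6436 to 6783 in the adult samples, so the exchange came with a higher total.

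The windows before the RefSeq starts (GRCm38.p6) of both rising genes carry paired CCAAT boxes in similar surroundings, shown here because the pair encodes one protein and rose together. For the distal box, 26 of 30 bases are identical, and for the proximal box 23 of 30. A CCAAT box also lies near the RefSeq starts of Tuba1a and Tuba1c, which fell, so the motif is not particular to rising genes. Capitals mark CCAAT, and the boxes begin 102 and 64 bases before the Tuba3a start and 89 and 51 before the Tuba3b start. In GENCODE M21 Tuba3b starts farther upstream, so its stretches lie within the first exon there.
Tuba3a distal, chr6:125286158-125286187, minus strand: acatCCAATcagaaagtgccagcactgcaa
Tuba3b distal, chr6:145615870-145615899, plus strand: acatCCAATcagaaagtaccaccgcttcaa
Tuba3a proximal, chr6:125286127-125286156, minus strand: ttgagccacatCCAATcattagtgggatgt
Tuba3b proximal, chr6:145615901-145615930, plus strand: ttgagccacatCCAATcgcaaaaaggacgt

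Among beta-tubulins Tubb4b rose and the others fell or were not called. Tubb4b (chr2:25222160-25224702, minus strand), which is used in axonemes, had the highest mean of them over the 28 juvenile mice, though Tubb5 was higher at 8 dpp. It stood at 696, 696 and 774 TPM at 8 dpp and at 1319, 1300, 1329, 1037 and 1076 TPM at 18 dpp, with no overlap. Its log2 fold change was 0.74 ± 0.08 (limma adjusted p = 1.11e-08), and its adult mean was 2055 ± 13.9 TPM. Its exons overlap Fam166a on the opposite strand, and the sources used here do not say that strand was used in counting.

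Tubb5, a widely expressed beta-tubulin (chr17:35833921-35838306), stood at 761, 797 and 787 TPM at 8 dpp and at 236, 230, 247, 332 and 322 TPM at 18 dpp, a log2 fold change of -1.53 ± 0.1 (limma adjusted p = 1.46e-13). Tubb2b (chr13:34126748-34130466) had the deepest fall of any member, from 10.8, 14.6 and 14 TPM to 1.61, 0.83, 0.67, 2.14 and 0.94 TPM, and was listed at 0 in adult samples 1 and 2. Its close relative Tubb2a, with a protein 99.6% identical, fell from 25.5 ± 2.58 to 11.1 ± 3.22 TPM and was 1.14 ± 0.465 TPM in the adult samples. Tubb6 fell from 43.6 ± 3.02 to 30.4 ± 10.8 TPM, with overlapping mice, and its call was lost in a limma fit of these ages alone (adjusted p = 0.0824). Tubb3, a beta-tubulin best known from neurons, passed through a maximum. It rose from 176 ± 9.75 TPM at 10 dpp to 250 ± 23.2 TPM at 12 dpp, was 131 TPM at both 8 and 18 dpp, and was 9.12 ± 0.795 TPM in the adult samples.

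Tubb5 and Tubb4b began as near equals, with 45.5% ± 1.22 and 42% ± 1.52 of beta-tubulin TPM at 8 dpp. At 18 dpp they held 16.6% ± 3.55 and 72.8% ± 6.28, and in the adult samples 0.671% ± 0.122 and 98.6% ± 0.105. Summed beta-tubulin TPM changed less than the alpha sum, from 1647 to 1785 at 8 dpp to 1590 to 1723 at 18 dpp. The ratio of summed alpha to summed beta TPM was accordingly 1.86 ± 0.0448 at 8 dpp, 2.86 ± 0.155 at 18 dpp and 3.16 ± 0.0739 in the adult samples.

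**Figure D3:**
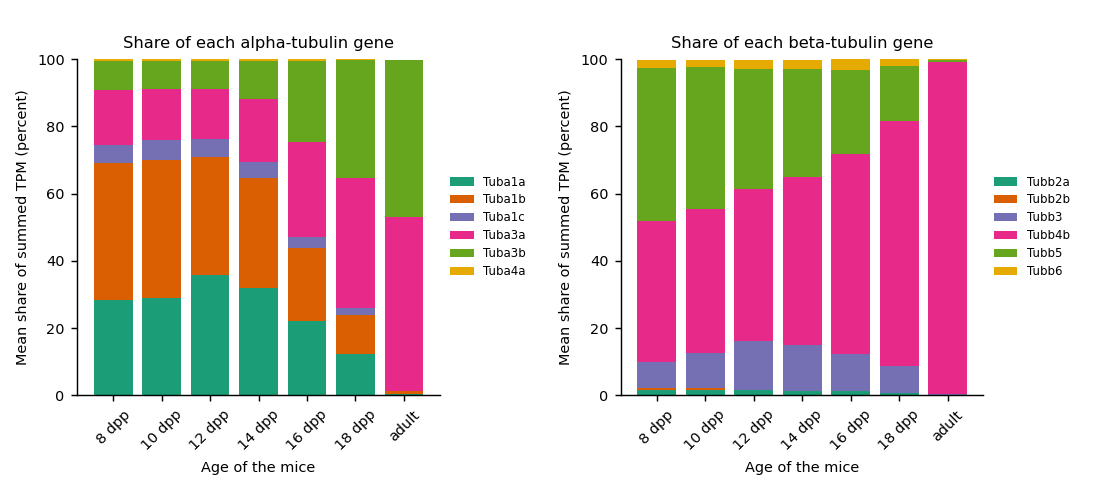
Mean share of each member gene in the summed TPM of alpha-tubulins (left) and beta-tubulins (right), as percent, at the 6 juvenile ages and in the adult samples. Tuba3a and Tuba3b grow from 25.1% to 98.4% of the alpha sum and Tubb4b from 42% to 98.6% of the beta sum.

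The RefSeq table held promoter windows, 250 bases before to 50 after a start, for 47 of the 59 members. These members have 51 windows, since some have more than 1 start. A CCAAT box (CCAAT, either strand) lay in 26 of the 51 windows (51%) and in 37.4% of all 32851 windows, a CHR element (TTTGAA, either strand) in 15 (29.4%) and in 17.9%, and an RFX half-site (GTTGCC, either strand) in 13 (25.5%) and in 12.5%. None of these motifs contains another, and a match is a description of the letters. The 250 bases before the start of Tubb4b are printed as the window of the dominant beta-tubulin, with 5 CCAAT boxes and 1 CHR element in capitals. Those of Kif9, the member with the steepest rise, hold none of the 3 motifs, and an RFX half-site lies just after this start and just before a second RefSeq start.
Tubb4b, chr2:25224703-25224952, minus strand: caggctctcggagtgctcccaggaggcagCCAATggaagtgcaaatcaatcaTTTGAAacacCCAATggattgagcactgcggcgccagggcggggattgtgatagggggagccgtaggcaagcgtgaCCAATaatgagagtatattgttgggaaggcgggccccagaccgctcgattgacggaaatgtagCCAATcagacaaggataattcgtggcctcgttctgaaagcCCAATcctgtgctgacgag
Kif9, chr9:110476708-110476957, plus strand: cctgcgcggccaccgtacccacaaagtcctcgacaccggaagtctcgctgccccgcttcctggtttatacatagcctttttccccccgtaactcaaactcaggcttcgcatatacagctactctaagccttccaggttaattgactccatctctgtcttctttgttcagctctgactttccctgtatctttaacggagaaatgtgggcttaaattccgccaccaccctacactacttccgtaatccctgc

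Of the minor tubulins, Tubd1 rose most. Delta-tubulin (Tubd1, chr11:86544991-86567360, plus strand) stood at 2.97, 3.87 and 3.59 TPM at 8 dpp and at 43.3, 40.8, 35.2, 19 and 19.4 TPM at 18 dpp, with every 18 dpp mouse above every 8 dpp mouse. Its log2 fold change was 2.78 ± 0.23 (limma adjusted p = 2.29e-11), and its adult mean was 73.5 ± 8.16 TPM. Tube1, epsilon-tubulin, also rose. Gamma-tubulin went down, Tubg1 from 50.9 ± 1.87 to 35.6 ± 5.95 TPM with an adult mean of 10.8 ± 1.58 TPM, and Tubg2 from 2.45 to 1.25 TPM. Tubg2 reached the 3 TPM needed to enter the gene table only in 8 dpp mouse 2, 10 dpp mouse 5 and 12 dpp mouse 1 (3.9, 3.02 and 3.96 TPM). Its membership thus rests on early values, and its fall is not independent of that filter.

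Kif9, a motor of the axoneme that sperm need for normal swimming (chr9:110476958-110525179, plus strand), changed most of the 59 members. It stood at 2.22, 1.72 and 1.77 TPM at 8 dpp, at 45.8, 21.2, 20.1, 23.6 and 44.4 TPM at 16 dpp, and at 162, 155, 143, 66.8 and 60.9 TPM at 18 dpp. No 18 dpp mouse was near an 8 dpp mouse, and the ratio of means was 61.7. The log2 fold change was 5.23 ± 0.32 (limma adjusted p = 1.16e-13). Its adult mean was 371 ± 6.42 TPM, the highest of any kinesin.

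Kif19a, a motor that shortens ciliary microtubules (chr11:114765388-114790739), rose late. It stayed between 0.56 and 3.27 TPM in all mice from 8 to 16 dpp. At 18 dpp it reached 18.4, 16.2, 15.1, 5.12 and 4.15 TPM, so every 18 dpp mouse was above every younger one. Only the 18 dpp mice and 16 dpp mouse 5 reached the 3 TPM needed to enter the gene table. Membership of Kif19a thus rests on its late values, and its rise is not independent of that filter. The adult mean of Kif19a was 42.7 ± 5.19 TPM. Kif27, a kinesin-4 relative of motile cilia (chr13:58287502-58359122), stood at 7.4, 6.98 and 8 TPM at 8 dpp and at 43.6, 47.8, 38.9, 24 and 23 TPM at 18 dpp, and Kif6, also tied to motile cilia, rose from 3.82 ± 1.5 to 13.8 ± 2.84 TPM. Their log2 fold changes were 2 ± 0.32, 2.05 ± 0.19 and 1.64 ± 0.19 (limma adjusted p = 4.49e-06, 3.53e-10 and 1.49e-08). Exons of Kif27 and Kif6 overlap other genes on the opposite strand.

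The kinesin-2 pair of intraflagellar transport rose unequally. Kif3b went from 30.2, 28.1 and 30 TPM at 8 dpp to 105, 94.2, 81.2, 49.1 and 48.2 TPM at 18 dpp, and Kif3a from 54.8 ± 4.78 to 80.6 ± 11.4 TPM (log2 fold changes 1.26 ± 0.17 and 0.54 ± 0.1, limma adjusted p = 1.92e-07 and 2.5e-05). In the 8 dpp mice Kif3a was the higher of the pair, and in the adult samples Kif3b was, at 181 ± 10.9 against 123 ± 5.84 TPM. Kif24, a centriolar kinesin, rose too, Kif3c was not called, and Kif7, the Hedgehog pathway kinesin, fell. Kif17 fell from 6.01 to 3.61 TPM in the juvenile mice, yet its adult mean was 19.5 TPM.

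**Figure D4:**
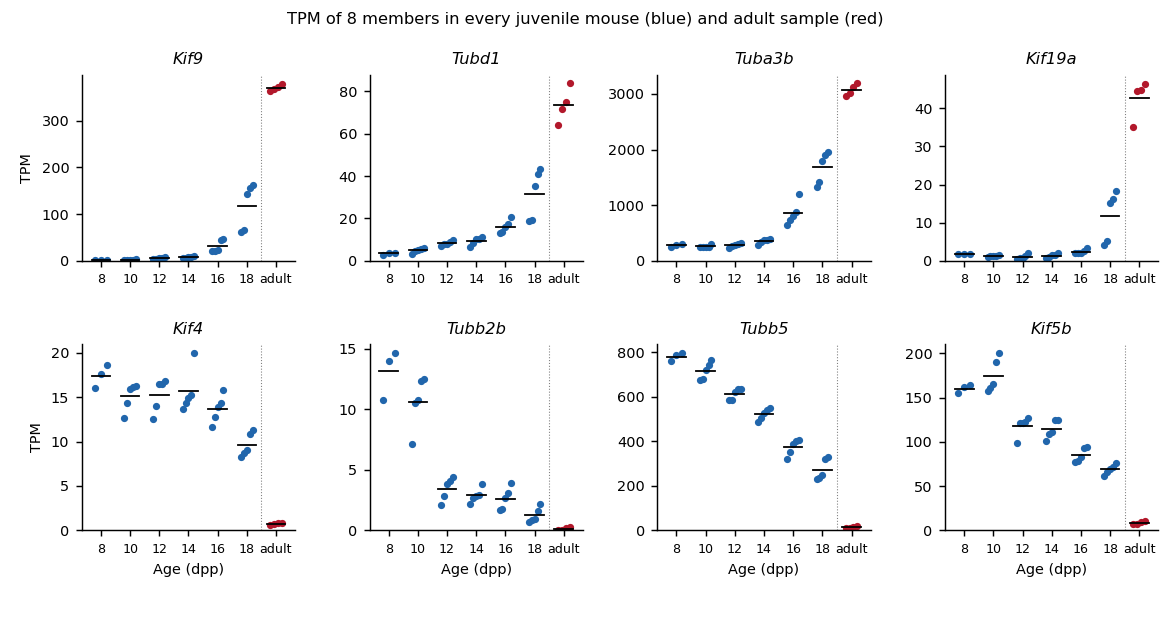
TPM of 8 members in every juvenile mouse (blue points, by age in dpp) and adult sample (red points), with a black bar at each mean; each panel has its own axis from 0, and the dotted line parts the separately normalized tables. Kif9, Tubd1, Tuba3b and Kif19a reach their highest juvenile values in 18 dpp mice 1 to 3, while Kif4, Tubb2b, Tubb5 and Kif5b are lowest at 18 dpp and lower still in the adult samples.

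Spindle kinesins changed by smaller steps. Kif2a, a kinesin-13 that removes tubulin from microtubule ends (chr13:106958996-107022126, minus strand), had the highest mean over the 28 juvenile mice and rose most. Kif23 from 8 to 12 dpp, and Kif20a at 8 dpp and from 12 to 16 dpp, had higher means than Kif2a. Kif2a stood at 51.6, 42.8 and 52.8 TPM at 8 dpp and at 150, 141, 131, 78.7 and 75.8 TPM at 18 dpp, a log2 fold change of 1.17 ± 0.16 (limma adjusted p = 3.24e-07), and its adult mean was 260 ± 5.06 TPM. Its exons overlap Dimt1 on the opposite strand. The other risers were Kif20b, Kif20a, Kif2c, Kif15, Kifc5b, Kif18a and Kif11, with log2 fold changes between 0.26 and 0.92. Kifc1 and Kif23 fell by less than any of the other called falls, and Kif14, Kif18b and Kif22 were not called. Proteins of Kifc1 and Kifc5b are 97.6% identical, so the opposite calls of this pair are uncertain.

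Kif4, a chromosome-bound kinesin, is the single X-linked member (chrX:100625737-100727214, plus strand). It stood at 17.6, 16.1 and 18.6 TPM at 8 dpp and at 8.66, 9.07, 8.32, 10.8 and 11.4 TPM at 18 dpp, without overlap, a log2 fold change of -0.8 ± 0.12 (limma adjusted p = 2.45e-06). In the adult samples it was 0.69, 0.85, 0.64 and 0.88 TPM. Pdzd11 overlaps it on the opposite strand.

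Transport motors mostly went down. Kif5b, the widely expressed kinesin-1 heavy chain (chr18:6201002-6242174, minus strand), stood at 162, 164 and 156 TPM at 8 dpp and at 69.7, 66.1, 61.5, 76.5 and 71.5 TPM at 18 dpp, with a log2 fold change of -1.21 ± 0.09 (limma adjusted p = 9.52e-12) and an adult mean of 8.65 ± 1.78 TPM. Kif5c, another heavy chain, fell from 14.2 ± 3.27 to 6.26 ± 1.13 TPM, and Kif5a and the light chain Klc1 fell as well. Klc2, the leading light chain, rose instead, from 101 ± 7 to 138 ± 7.61 TPM, and was 99.9 ± 1.57 TPM in the adult samples. Klc3 and Klc4 were not called. Summed heavy chain TPM was 176 to 186 at 8 dpp, 71.1 to 88.4 at 18 dpp and 11.1 to 16.1 in the adult samples. Summed light chain TPM was 183 to 196, 217 to 229 and 133 to 140 in the same groups.

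Of the kinesin-3 motors, which carry vesicles, Kif1c and Kif1a fell most. Kif1c was also the one of highest mean over the juvenile mice, while Kif1b and Kif13b were above Kif1a at both 8 and 18 dpp. Kif1c (chr11:70700548-70731964) stood at 64, 58.8 and 61.3 TPM at 8 dpp and at 24.4, 25.2, 23.8, 33.9 and 32.2 TPM at 18 dpp, and Kif1a (chr1:93015464-93101951) fell from 22.2 ± 1.16 to 10 ± 0.891 TPM. Both were near 1 TPM in the adult samples, at 1.66 ± 0.371 and 0.695 ± 0.101. Kif13a, Kif13b and Kif1b fell, Kif1bp rose by 0.19 on the log2 scale, and Kif16b was not called. Of the other kinesins, Kif26a, a motor-like protein without ATPase activity, fell from 26.2, 26.8 and 24.9 TPM to 9.56, 7.3, 8.05, 10.6 and 10.5 TPM, and was 0.245 ± 0.085 TPM in the adult samples. Kif21b fell from 15.8 ± 0.87 to 8.97 ± 1.19 TPM and Kif21a from 44.5 ± 0.83 to 34.4 ± 3.89 TPM, the latter not called with median-of-ratios factors (limma adjusted p = 0.114). Kifc3, a motor directed to the minus end, rose from 9.24 ± 0.636 to 22.8 ± 2.95 TPM, and predicted genes overlap its exons on the opposite strand.

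Calls between neighbouring ages fell in 3 of the 5 steps. No member was called between 8 and 10 dpp in either direction (background 0.977% higher and 0.226% lower by limma, with 1 and 0 members at an unadjusted p under 0.05). None was called between 12 and 14 dpp (0.157% and 0.0147%, with 7 and 5 members at an unadjusted p under 0.05). Between 10 and 12 dpp 9 members rose and 6 fell, against 12% and 9.39% of all genes. Without 10 dpp mouse 1, or without mouse 2, the falls numbered 3. Kif9 (1.28 ± 0.28), Tubd1 (0.65 ± 0.2) and Tubb3 (0.50 ± 0.1) rose most and Tubb2b (-1.39 ± 0.2), Kif5b (-0.56 ± 0.08) and Kif26a (-0.38 ± 0.12) fell most on the log2 scale. Library barcodes of the 8 to 12 dpp mice recur at 14 to 18 dpp in the labels, which do not say which libraries were sequenced together. If the recurrence marks separate runs, run and age cannot be told apart in the step from 12 to 14 dpp or between 8 and 18 dpp.

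From 14 to 16 dpp 7 members rose and 15 fell, against 12.7% and 11.3% of all genes. Without 16 dpp mouse 5 the falls numbered 9, and with median-of-ratios factors there were 8 rises and 10 falls. The largest rises were those of Kif9 (1.89), Tuba3b (1.24) and Tuba3a (0.80), and the largest falls those of Kif21b (-0.63), Kif1a (-0.51) and Tubb5 (-0.49). From 16 to 18 dpp 19 members rose and 21 fell, against 23.4% and 30.6% of all genes. With median-of-ratios factors 23 rose and 14 fell. The shares of all genes in both steps belong to the fit without these factors. Kif9 (1.86), Kif19a (1.72) and Kif27 (1.14) rose most and Kif1a (-0.71), Tubb2b (-0.70) and Tubb6 (-0.66) fell most. For these steps the values are limma log2 fold changes with an adjusted p under 0.05.

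Set beside the 18 dpp mice without a test, all 4 adult samples were above every 18 dpp mouse in 19 members and below every one in 35, where all genes gave 22.3% and 53.4%. The 5 members of highest adult TPM were Tuba3a, Tuba3b, Tubb4b, Kif9 and Kif2a, and each of them had risen between 8 and 18 dpp. Outside the 59, Kif2b and Tuba8 were absent from the juvenile gene table, in which every gene reached 3 TPM in at least 1 mouse, but held 50.6 ± 18.5 and 12.4 ± 3.52 TPM in the adult samples. Per the study these samples were enriched for spermatocytes, not pure, and the spermatid genes summed to 872 to 1189 TPM in them. Which cells held the RNA of Kif2b and Tuba8 was not tested.

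Transcript usage, the percent of a gene's TPM assigned to each of its transcripts, was tested by limma for 72 transcripts of 24 members, and 6 of them changed by at least 10 points between 8 and 18 dpp with an adjusted p under 0.05, against 9.98% of all transcripts tested. Tubd1 had the largest change in both directions. Its transcript Tubd1-202, with 9 exons and 455 codons, held 83.4%, 75.5% and 71.8% of Tubd1 TPM at 8 dpp and 2.89%, 12.8%, 12.7%, 12.9% and 35% at 18 dpp, a difference of -61.6 ± 8.21 points (adjusted p = 6.57e-06). Tubd1-203, with 10 exons and 486 codons and the same start and end, held 16.6%, 24.5% and 28.2% and then 63%, 74.7%, 73.4%, 75.4% and 47.8%, a difference of 43.8 ± 6.65 points (adjusted p = 4.08e-05). The ages did not overlap for either transcript. Here mice 4 and 5 of 18 dpp did not lie together, since mouse 4 had the highest share of Tubd1-203 and mouse 5 the lowest.

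The other called changes were smaller. Kif2a-206, a coding transcript of 743 codons, rose from 7.03% ± 6.63 to 24.8% ± 4.27 of Kif2a TPM (SD). Klc3-206, a retained-intron transcript without a coding sequence, rose from 43.9% ± 2.69 to 72.6% ± 7.09, and a coding Klc3 transcript of 508 codons was at 12.9% to 14.5% at 8 dpp and listed at 0 in every 18 dpp mouse, although the level of Klc3 itself was not called. A coding transcript of Kif17 with 710 codons fell from 38.9% ± 11.7 to 11.5% ± 14.8, with overlapping mice. With a gene minimum of 10 TPM at both ages in place of 3 TPM, 3 transcripts were called, those of Kif2a and Klc3. Tubd1, with a mean of 3.48 TPM at 8 dpp, and Kif17 were not tested there, so the largest usage changes rest on low gene levels at 8 dpp.

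**Figure D5:**
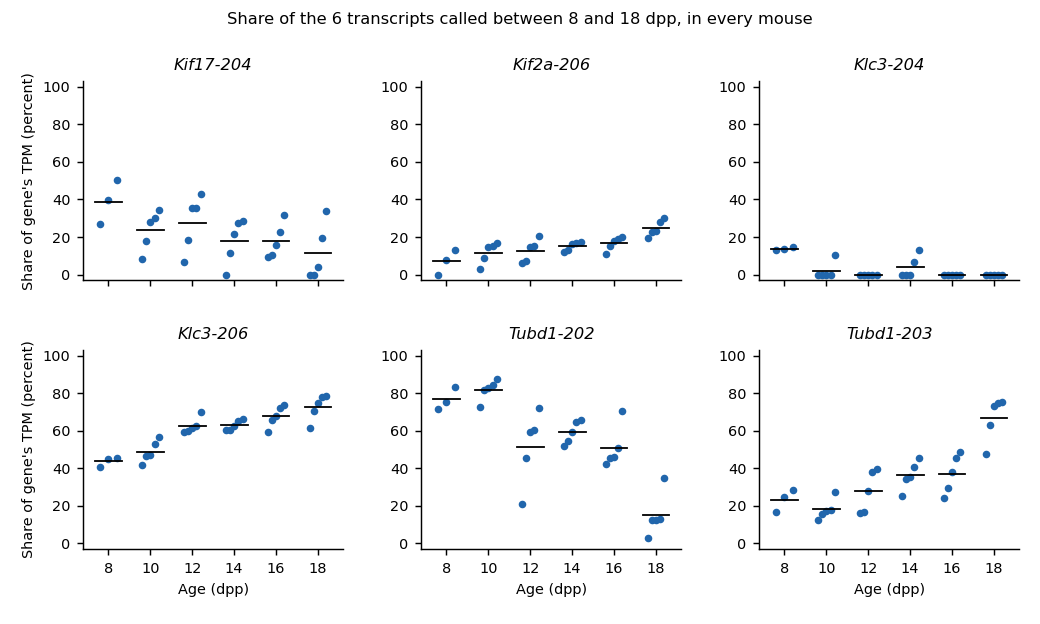
Share of the gene's TPM, in percent, of the 6 called transcripts in each juvenile mouse by age in dpp, with a black bar at each mean. Tubd1-202 drops to 35% or less in all 18 dpp mice as Tubd1-203 climbs to 47.8% or more.

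Genes that fold, modify, cut or partner with microtubules were taken from lists by function, to be read against 31.8% of all genes called higher and 36.3% lower. Of 16 tubulin folding genes 10 rose and 3 fell (median log2 fold change 0.42), led by the chaperonin subunits Cct6b (5.75) and Tcp1 (1.74), with the cofactors Tbcd (-0.59) and Tbce (-0.46) lowest. Of 23 tubulin modification genes in the table, from 26 listed, 15 rose and 4 fell (median 1.205). The deglutamylase Agbl2 (5.02) and the glutamylase Ttll13 (4.85) were highest and the detyrosinase Vash1 (-1.21) and the deacetylase Hdac6 (-0.94) lowest. The 3 TPM filter admits genes that are high at only some ages and left out Ttll2, Ttll8 and Agbl1. Agbl4, for example, averaged 0.906 TPM at 14 dpp and 30.8 TPM at 18 dpp. The count of rises therefore depends in part on this filter. Of 7 severing genes 5 rose and 2 fell (median 1.38), Katnal2 (3.36) and Katnal1 (2.27) against Fign (-1.55) and Katna1 (-0.28). The 3 TPM filter bears on the folding and severing lists too. Cct6b averaged 0.983 TPM at 8 dpp and 115 TPM at 18 dpp, and Fign 2.88 and 0.324 TPM. The changes of these genes are therefore not independent of it.

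Gamma-tubulin ring complex genes gave 4 rises and 3 falls of 8, with a median of 0.16, from Mzt2 (1.76) and Tubgcp4 (0.44) to Mzt1 (-0.62) and Tubgcp3 (-0.58). Kinesin partners gave 2 rises and 3 falls of 6. The rises were those of Prc1 (1.38), which bundles spindle midzone microtubules, and Kifap3 (1.05), the third subunit of the Kif3a and Kif3b motor, and the falls were led by the kinesin-1 adaptors Trak2 (-0.71) and Trak1 (-0.65). All of these values are limma log2 fold changes from 8 to 18 dpp, to be read against the median of -0.09 over all genes.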

How the data were processed

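Poly-A RNA-seq of 28 juvenile germ cell samples and 4 adult pachytene/diplotene samples was used. Per the labels and the study's methods, the authors aligned reads with Bowtie 1.0.0 to Ensembl, NONCODE and piRNA precursor transcripts (mm10) and deposited TPM values computed with RSEM 1.2.8. The 8 dpp group held 3 mice. The transcript table and the adult table held TPM. The deposited values of the juvenile genes were on another scale than the planned TPM, exp(log2(TPM + 1)) - 1, and were converted back: 20288 genes were then within 0.2 TPM of their summed transcripts in every mouse, members within 0.02. Its column of substage assignments is the authors' finding and was not used. TPM keeps no read counts, so depth and counting error are unknown.

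Groups followed the labels. log2(TPM + 1) of all 20368 genes was fitted over the 6 ages with limma 3.58.1 in R 4.3.3, with a trend in the prior variance, and p-values were adjusted by Benjamini and Hochberg at 0.05. Transcript shares were fitted likewise for 22266 transcripts whose genes had a mean of at least 3 TPM at both ages and whose share reached 5% at either. Tested on simulated data for 18 against 8 dpp, 86.5% of 200 genes changed by 1 on the log2 scale were recovered over 20368 genes with 5.46% false calls, and 57.5% of 200 transcripts changed by 20 points over 22266 with 8.73%. The mice of one age were separate animals. Positions came from GENCODE M21 (GRCm38), and 14896 of 15025 Ensembl genes matched it. Coding sequences were the longest of each gene there. Promoter windows came from RefSeq (GRCm38.p6).

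Members, lists and tests were chosen with earlier results of these data known. Named with values were the 10 largest rises and 10 largest falls from 8 to 18 dpp among called members without overlap, the 3 largest called rises and falls of each step, the most abundant member of each role, the 5 highest in the adult samples, the largest usage changes, X-linked members, and members with proteins at least 98% identical. Values of Tuba4a, Tubg2, Kif1bp and Kif17, and the transcripts of Kif2a, Klc3 and Kif17, were added after their values were seen. Alternatives were another pseudocount (0.1), filters, scalings, no variance trend, only the ages compared, replicate numbers as a block, mice 1 to 3 alone and leaving out each mouse. Leaving out 18 dpp mice 4 and 5 was chosen after seeing the data.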

Additional observations from a re-analysis of the deposited data

Results flagged for a closer look

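In 180 groups of 4 or 5 samples of the 30 named members, 11 groups (6.11%) held a sample whose gap to the nearest other, divided by the range, passed Dixon's critical value, where chance gives about 1 in 20. At 10 dpp, mouse 2 had 550.1 TPM of Tuba3a and 298 TPM of Tuba3b (others 442 to 467 and 241 to 255), and mouse 3 had 670.1 TPM of Tubb4b (others 726 to 739). At 12 dpp, mouse 1 had 99 TPM of Kif5b (others 121 to 127), mouse 3 had 7.43 TPM of Kif9 (others 4.51 to 5.3), and mouse 5 had 51.1 TPM of Kif1c and 22.3 TPM of Kif21b (others 44.8 to 46.3 and 15.6 to 17.4). Kif4 stood at 19.97 TPM in 14 dpp mouse 7 (others 13.7 to 15.3), and Kif1a at 24.1 TPM in 16 dpp mouse 3 (others 14.8 to 17). Adult sample 3 had 35.04 TPM of Kif19a (others 44.6 to 46.5) and 2.21 TPM of Kif1c (others 1.42 to 1.52).

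Kif2b and Tuba8, which the juvenile gene table leaves out, were present in the adult samples. Kif2b had a mean of 50.6 TPM (24.4 to 66.9) and Tuba8 of 12.4 TPM (7.61 to 16.1), and the transcript sums of the juvenile mice reached at most 1.56 TPM for Kif2b and 0.71 TPM for Tuba8. Which cells of the adult samples held this RNA was not tested.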

How the results depend on the processing

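Of 1140 refits of the 30 named members between 8 and 18 dpp, over 38 settings, 1132 kept direction and side of the threshold, and 2 lost the call (Kif21a and Tubb6, as in the report). The other 6 concern Tubb3, not called at -0.01, which changed sign with median-of-ratios factors (0.16) and ranged from -0.13 to 0.049 on leaving out 1 mouse. Counts of members called stayed within 1.5 times under the other settings, with these exceptions. Leaving out 1 mouse gave 0 to 1 rises from 8 to 10 dpp (1 without 18 dpp mouse 4), 3 to 6 falls from 10 to 12 dpp and 9 to 16 falls from 14 to 16 dpp. Without 18 dpp mice 4 and 5 there was 1 rise from 8 to 10 dpp and 1 fall from 12 to 14 dpp. Called transcripts numbered 3 with a gene minimum of 10 TPM, where fewer transcripts were tested. Leaving out 1 adult sample moved no adult mean of a named member by more than 1 SD. Replicate numbers of the labels name different animals, and same-numbered mice of different ages did not deviate together (correlations -0.25 to 0.25, median 0.01, 57 pairs). With the replicate block, 23 members rose and 25 fell from 8 to 18 dpp, 9 and 5 from 10 to 12 dpp, 7 and 11 from 14 to 16 dpp and 19 and 21 from 16 to 18 dpp, none was called in the other steps, 52 differed among the ages and 5 transcripts were called. Depth is unknown, so low levels such as those of Tubb2b at 18 dpp have no counting error, and genes overlapping on opposite strands or with near-identical copies stay uncertain.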
